A study of Mus musculus with 4 samples.

Results

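The nuclear-encoded subunits and assembly factors of the mitochondrial respiratory chain and ATP synthase were followed between naive mouse embryonic stem cells (nESC) and epiblast-like stem cells (EpiLSC). They were chosen by symbol: Nduf, Sdh, Uqcr, Uqcc, cytochrome c, Cox, Coa, Sco, Atp5 and Atpaf genes. The rule took 117 of the 20296 genes in the authors' deposited table, all annotated as protein coding. Of these, 83 encode subunits and 34 encode assembly factors. Complex I had 36 subunits and 8 assembly factors, complex II 4 and 4, complex III 9 and 3, complex IV 17 and 16, and ATP synthase (complex V) 16 and 3. Cytochrome c, Cycs, was the remaining subunit. A further 15 annotated symbols that match the rule, 9 of them with pseudogene names, were not analysed here.

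Total RNA, depleted of ribosomal RNA, was sequenced from 4 samples, 2 per state. Each state had 1 sample of the embryonic stem cell line R1 and 1 of the line E14TG2a. The nESC were kept in 2i/LIF, a pair of kinase inhibitors with leukaemia inhibitory factor. The EpiLSC were collected on day 3 in N2B27 medium with activin A at 20 ng/ml and bFGF at 12 ng/ml. The labels name no genetic change in these samples. Nothing in the labels says whether the 2 samples of a state were cultured independently beyond being separate lines. The p-values are set against the spread between these samples only. The deposited values do not show whether the model took the line into account, so a difference between lines may be part of that spread. The table gives 1 row per gene and no value per sample, so the depth of each sample is unknown and no value per sample can be shown. Each gene has a mean of normalized counts over the libraries, a log2 fold change with its standard error (SE), and a DESeq2 Wald test with Benjamini-Hochberg adjustment. Positive fold changes are higher in EpiLSC: all 10 naive markers were called lower and all 9 formative markers were called higher in the authors' deposited table, with Zfp42 at -6.22 (SE 0.62) and Fgf5 at 8.40 (SE 0.76). The level in each state was worked out here from these values, assuming equal weight for the 4 libraries. A called gene has an adjusted p under 0.05. In bulk RNA, fewer cells of a type and less RNA per cell cannot be told apart.

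Complex I (NADH dehydrogenase) and complex II (succinate dehydrogenase) pass electrons to coenzyme Q, complex III passes them on to cytochrome c, and complex IV (cytochrome c oxidase) passes them to oxygen. Complexes I, III and IV pump protons out of the mitochondrial matrix, and ATP synthase uses the returning protons to make ATP. Most subunits are nuclear encoded and imported, a small set is encoded in mitochondrial DNA, and dedicated factors insert haem, copper and iron-sulfur clusters or join the modules. Naive and primed pluripotent cells are known to differ in their use of respiration and glycolysis.

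None of the 115 members with an adjusted p was called in either direction, where 13.9% of all tested genes were called (7.67% higher and 6.23% lower in EpiLSC). None had an unadjusted p under 0.05 in the authors' deposited table, where 21.7% of all tested genes did. Of the members, 56 had a mean of at least 1000. At such means 6.41% of tested genes were called (2.4% higher and 4% lower) and 10.2% had an unadjusted p under 0.05. At means from 100 to 1000, 16.8% were called (9.26% higher and 7.51% lower). The smallest adjusted p of a member by the DESeq2 Wald test was 0.248, for Cox7a1. Cox4i2 and Cox6a2, with means of 2.11 and 0.60, had no adjusted p in the authors' deposited table.

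The deposited fold changes of the members were small and mostly below 0. Their median was -0.22, and 81 of 115 (70.4%) were negative, against a median of 0.02 and 49.0% negative over all tested genes. The median also varied with the GC content of the transcript. At means of 100 or more, tested genes had 0.10 below 50% GC, -0.19 from 50% to 55% and -0.17 at 55% or more. Members had -0.13, -0.24 and -0.37 in these ranges. The part of GC content in the fold changes was not tested. The standard deviation across the members was 0.45, against 2.17 over all tested genes and 1.16 over tested genes at means of at least 1000. Subunits had a median of -0.27 with 61 of 81 negative, and assembly factors a median of -0.03 with 20 of 34 negative. These counts describe genes measured in the same 4 samples, and genes are not replicates. Of the tested members, 5 (4.35%) had a fold change beyond 2-fold either way: Cox7a1, Cox7b2, Cox6b2, Cox6a1 and Cox16, all lower in EpiLSC. The share was 39.4% over all tested genes and 15.7% at means of at least 1000. Cox7a1, Cox7b2 and Cox16 had means under 100 (97.7, 40.9 and 61.2).

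The absence of calls leaves room for changes of moderate size. The median SE of the tested members was 0.72, and even the smallest SE in the table gives a 95% interval that reaches 1.19 log2 units to each side. So 0 of 115 intervals lay within a 2-fold change either way, while 78 of 115 lay within a 4-fold change either way. Of all 16361 tested genes, 0 intervals lay within a 2-fold change and 5856 within a 4-fold change. At means of at least 1000, 3321 of 4949 tested genes and 44 of 56 members lay within a 4-fold change. The summed level of the members was 277851 normalized counts in nESC and 232918 in EpiLSC, a ratio of 0.838. As a share of all levels, that was 0.985% in nESC and 0.844% in EpiLSC. No error can be given for these sums.

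**Figure D1:**
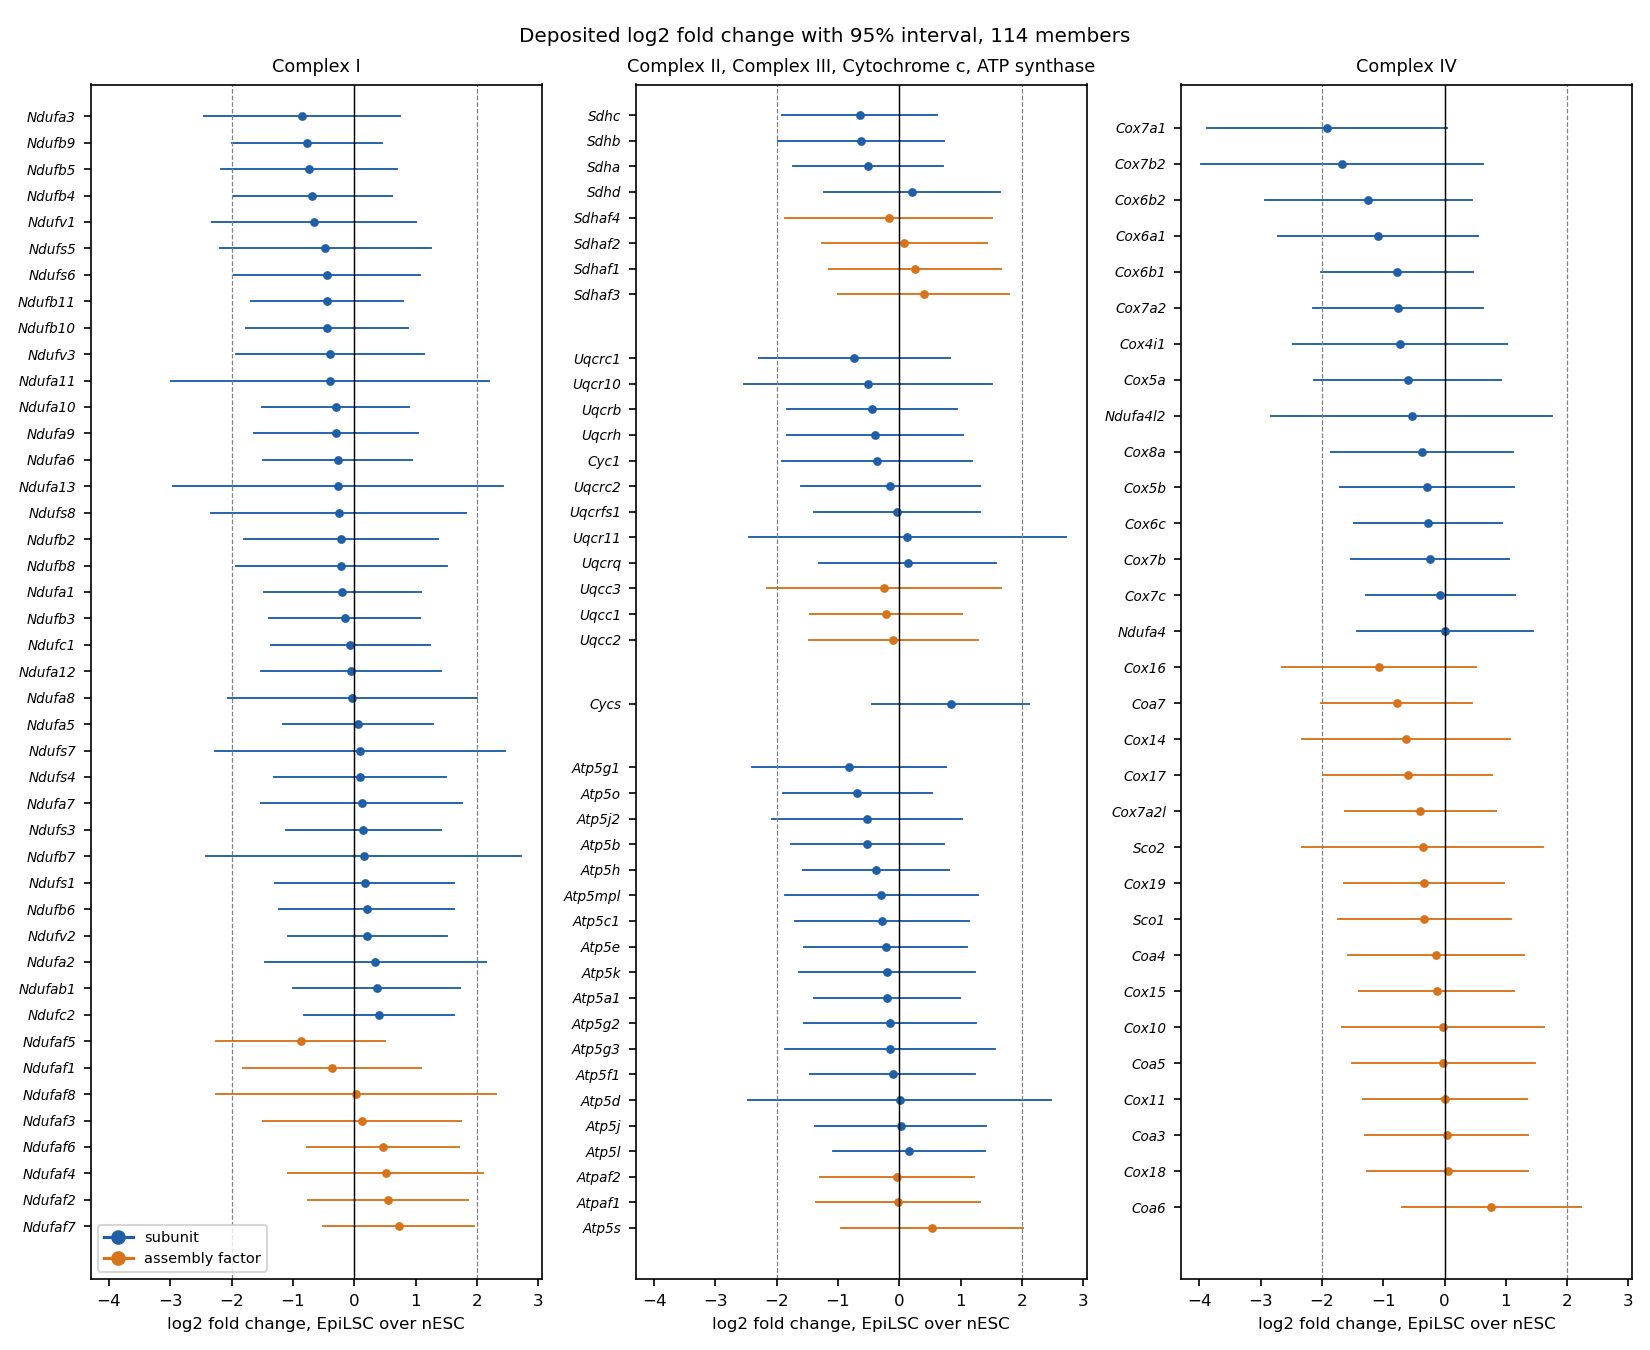
Deposited log2 fold change (EpiLSC against nESC) of the tested members, all but 1, by complex, with subunits and assembly factors apart; each point is a gene, its line the 95% interval, and the dashed lines a 4-fold change. Points sit mostly below 0, and complex IV subunits reach lowest, to -1.91 for Cox7a1.

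Sequences just upstream of 4 genes are shown because these genes carry the extremes and contrasts below: of the members with an adjusted p, Cycs had the highest fold change and Cox7a1 the lowest, Cox7a2 is the widely expressed counterpart of Cox7a1, and Cox6a1 had the lowest fold change among widely expressed subunits. This set was narrowed after motif matches were seen. Each is the 250 bases before the RefSeq start (GRCm38.p6), printed 5′ to 3′ in the direction of the gene, and capitals mark matches to GCGCATGCG on either strand, a core of the site of NRF1, a transcription factor of many respiratory genes. Cycs lies on the minus strand at chr6:50566570-50566819, Cox6a1 on the minus strand at chr5:115348959-115349208, Cox7a1 on the plus strand at chr7:30183921-30184170 and Cox7a2 on the minus strand at chr9:79759854-79760103.
Cycs: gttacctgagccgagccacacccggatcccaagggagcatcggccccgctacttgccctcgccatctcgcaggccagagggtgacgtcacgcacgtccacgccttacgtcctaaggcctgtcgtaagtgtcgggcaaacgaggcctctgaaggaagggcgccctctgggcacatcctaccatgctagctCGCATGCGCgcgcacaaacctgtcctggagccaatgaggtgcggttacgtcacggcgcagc
Cox6a1: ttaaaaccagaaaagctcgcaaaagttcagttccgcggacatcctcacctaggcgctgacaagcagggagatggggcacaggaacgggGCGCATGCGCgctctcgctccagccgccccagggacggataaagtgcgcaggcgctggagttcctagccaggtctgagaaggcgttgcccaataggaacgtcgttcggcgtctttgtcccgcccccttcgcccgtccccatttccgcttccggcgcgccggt
Cox7a1: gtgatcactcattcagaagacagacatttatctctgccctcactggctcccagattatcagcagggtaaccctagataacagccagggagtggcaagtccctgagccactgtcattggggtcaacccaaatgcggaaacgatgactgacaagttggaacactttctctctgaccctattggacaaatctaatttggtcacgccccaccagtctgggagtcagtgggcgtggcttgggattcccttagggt
Cox7a2: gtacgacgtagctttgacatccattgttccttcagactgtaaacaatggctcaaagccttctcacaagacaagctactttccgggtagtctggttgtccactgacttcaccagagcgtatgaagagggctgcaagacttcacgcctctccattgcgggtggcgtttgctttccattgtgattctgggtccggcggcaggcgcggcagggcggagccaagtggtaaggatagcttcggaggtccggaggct

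Cycs and Cox6a1, whose fold changes had opposite signs, both held the NRF1 letters, and neither Cox7a promoter did. The Cox7a1 stretch held 4 CpG dinucleotides and the Cox7a2 stretch 14. Of 97 members with a RefSeq promoter (20 were not matched), 11 (11.3%) held GCGCATGCG on either strand in the window of 300 bases, against 2.41% of 17492 coding promoters. AAGATGGCG, a YY1 core, was in 9 (9.28%) against 1.94%, and CCGGAAGT, an ETS core, in 8 (8.25%) against 5.29%. The window of 300 bases takes in 50 bases after the start. In all 9 members the AAGATGGCG match ended in that part, as did some matches of GCGCATGCG and CCGGAAGT. TATAAA was in 8 (8.25%) against 13.3%. Member promoters were also richer in CpG and GC. In the 250 bases before the start, members had a median of 15 CpG dinucleotides and 57.6% GC, against 10 and 55.2% for all coding promoters. The part of base composition in the shares of matches was not tested. A match is a description of letters, not a bound site.

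In complex I, the 36 subunits had a median of -0.21 with 24 negative in the authors' deposited table, and the 7 core subunits, which carry the flavin and iron-sulfur clusters or bind quinone, had a median of 0.09. The 29 accessory subunits had a median of -0.22. Ndufa3 had the lowest fold change of the subunits at -0.85 (SE 0.82), with a computed level of 553 in nESC and 308 in EpiLSC. Ndufb9 followed in the authors' deposited table at -0.77 (SE 0.62). On the higher side, Ndufc2 stood at 0.41 (SE 0.63) and Ndufab1, the mitochondrial acyl carrier protein, at 0.36 (SE 0.69). Every one of these intervals includes 0. Per kilobase of merged exons, Ndufv2, a core iron-sulfur subunit, had the highest level (1765 in nESC, 2042 in EpiLSC) and Ndufb2 the lowest (30.9 and 26.6); with the longest or the principal transcript as length, Ndufb9 was highest.

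The 8 complex I assembly factors had a median of 0.30, with 6 positive. Ndufaf7, a protein arginine methyltransferase, had 0.72 (SE 0.63), from a computed 416 normalized counts in nESC to 687 in EpiLSC. Ndufaf2 had 0.55 (SE 0.66) in the authors' deposited table. Ndufaf5, a hydroxylase that acts on Ndufs7, went against these at -0.87 (SE 0.70), from 732 to 400.4 normalized counts, and Ndufaf1 had -0.36 (SE 0.74). The difference between factors and subunits was not tested, because members share their samples.

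Of the 4 complex II subunits, 3 had negative fold changes in the authors' deposited table: Sdhc at -0.65 (SE 0.65), Sdhb, the iron-sulfur subunit, at -0.63 (SE 0.69), and Sdha, the flavoprotein, at -0.51 (SE 0.62). Sdhd, which anchors the complex in the membrane with Sdhc, had 0.21 (SE 0.73). All 8 complex II intervals lay within a 4-fold change either way. Among the assembly factors, Sdhaf3 had 0.40 (SE 0.71), Sdhaf1 0.26 (SE 0.72) and Sdhaf4 -0.18 (SE 0.86) in the authors' deposited table. Sdhd had the highest level per kilobase of merged exons (1582 in nESC, 1825 in EpiLSC), Sdha with the other lengths, and Sdhaf3 the lowest (43.1 and 56.8).

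The 9 complex III subunits had a median of -0.36 with 7 negative, and the 3 assembly factors a median of -0.22 with all 3 negative. Uqcrc1, a large core protein of the matrix side, had -0.73 (SE 0.79), from a computed 3909 to 2354 normalized counts, and Uqcrb had -0.45 (SE 0.71) in the authors' deposited table. Of the redox subunits, cytochrome c1 (Cyc1) was at -0.36 (SE 0.79) and the Rieske protein (Uqcrfs1) at -0.04 (SE 0.69). Uqcrq at 0.13 (SE 0.74) and Uqcr11 at 0.13 (SE 1.32) were the positive ones in the authors' deposited table. Of the assembly factors, Uqcc3 had -0.25 (SE 0.97) and Uqcc1 -0.22 (SE 0.63). Uqcrb had the highest level per kilobase of the complex (6070 in nESC, 4448 in EpiLSC), and Uqcc1 the lowest per kilobase of merged exons (143 and 123). With the principal transcript as length, Uqcc3 was lowest (296 and 249).

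Cycs, the soluble carrier between complexes III and IV, had the highest deposited fold change of the 115 members with an adjusted p, 0.84 (SE 0.65). Its 95% interval ran from -0.44 to 2.11 and its adjusted p by the DESeq2 Wald test was 0.577. The computed level was 4341 normalized counts in nESC and 7747 in EpiLSC. Its testis counterpart Cyct, which is no member, had -1.36 (SE 0.80) in the authors' deposited table.

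**Figure D2:**
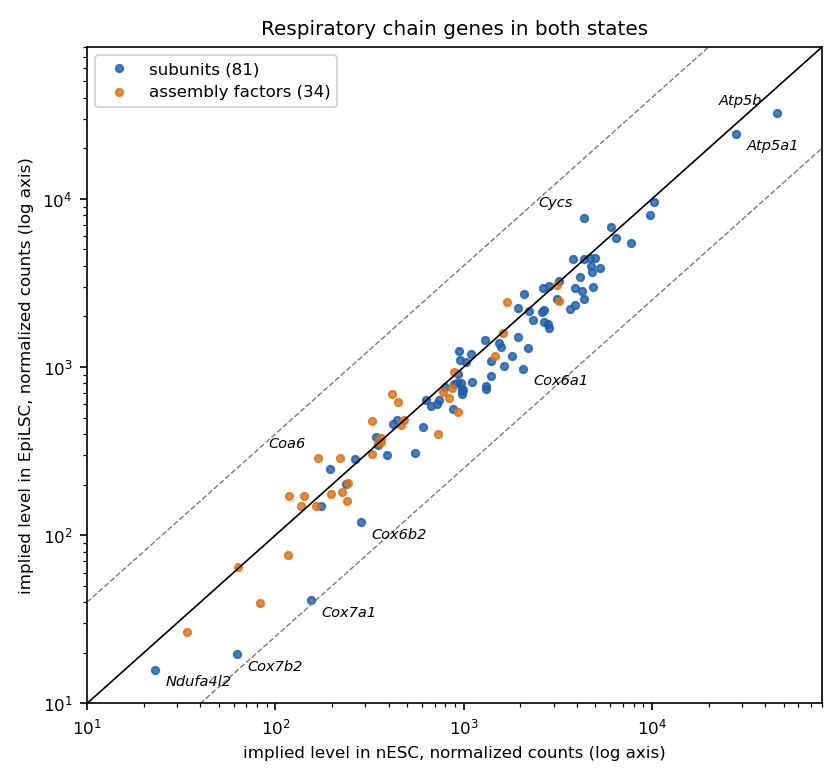
Computed level of each member with a mean of at least 3 in nESC (horizontal) and EpiLSC (vertical), normalized counts on log axes; the solid line is equality and the dashed lines a 4-fold difference. Members follow the line over the whole range, with Cox7a1 (154 and 41.0) farthest below it and Cycs (4341 and 7747) above it.

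Complex IV subunits had a median of -0.60, and 14 of 15 were negative in the authors' deposited table. Among subunits with a mean of at least 100 the median was -0.48, and the 4 complex II subunits had -0.57. No test compares the complexes. The positive one was Ndufa4, at 0.01 (SE 0.73), named for complex I but counted with complex IV. The 11 widely expressed subunits had a median of -0.37, led by Cox6a1 at -1.08 (SE 0.83, 2065 to 976 normalized counts), with Cox6b1 at -0.78 (SE 0.63) and Cox7a2 at -0.77 (SE 0.71). Cox7c, at -0.07 (SE 0.62), lay near 0 in the authors' deposited table. Per kilobase of merged exons Cox6b1 was highest (6127 in nESC, 3573 in EpiLSC), and with the other lengths Cox7c.

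Isoforms known for restricted tissues were present at low levels. Cox7a1, the heart and muscle form of subunit 7a, had -1.91 (SE 1.00) in the authors' deposited table, with a 95% interval from -3.87 to 0.05. Its computed level was 154 normalized counts in nESC and 41.0 in EpiLSC. Per kilobase, Cox7a1 made up 17.2% of the sum of Cox7a1 and Cox7a2 in nESC and 8.55% in EpiLSC. Cox7b2 had -1.67 (SE 1.17) and Cox6b2, a testis form, -1.24 (SE 0.86), both in the authors' deposited table. Cox7b2 was at 115 per kilobase in nESC and 36.1 in EpiLSC beside 3885 and 3281 for Cox7b, and Cox6b2 at 256 and 108 beside 6127 and 3573 for Cox6b1. With the principal transcript as length, Cox6b2 was at 484 and 205 beside 7019 and 4093 for Cox6b1. Ndufa4l2 had -0.54 (SE 1.17) in the authors' deposited table. Cox4i2 and Cox6a2 had means under 3, so Cox4i1 and Cox6a1 held nearly all of their families' level.

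None of these isoforms was called, and marker lists of other cell types gave the following values. Of 16 striated muscle markers, 12 with an adjusted p, 3 were called higher and 1 lower, and their summed level was 23109 in nESC and 684 in EpiLSC, of which Ttn made up 22810 and 279.98. Ttn fell by 6.35 on the log2 scale (SE 0.71), while in the authors' deposited table Myh6, a heart myosin, stood at 6.16 (SE 1.39) and was called higher. Of 6 germ cell markers, 5 with an adjusted p, Ddx4 and Sycp3 were called higher and Dazl lower. The testis forms Ldhc at -0.48 (SE 0.86) and Cyct at -1.36 (SE 0.80) were not called. The summed level of the 6 was 1687 in nESC and 5781 in EpiLSC, and Sycp3 made up 4223 of the latter. Of 9 primitive endoderm markers, 7 with an adjusted p, 3 were called higher and 1 lower. Their sums were 6654 and 1191, of which Lama1, the gene called lower, made up 6511 and 136. Of 9 fibroblast markers, 6 with an adjusted p, 3 were called higher and 0 lower, with sums of 101 and 477. Their part in the isoform values was not tested.

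**Figure D3:**
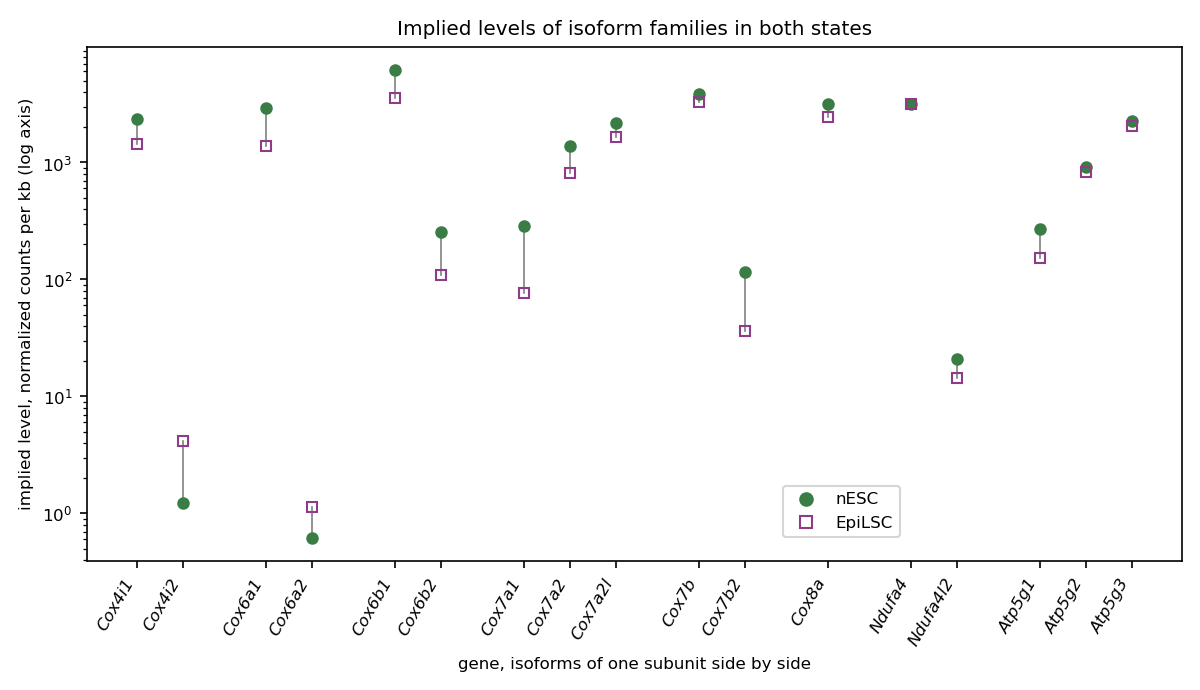
Computed level per kilobase of merged exons for isoforms of the same subunit, in nESC (filled circles) and EpiLSC (open squares), on a log axis. The restricted forms Cox7a1, Cox7b2 and Cox6b2 sit below their widely expressed counterparts in both states.

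The 16 complex IV assembly factors had a median of -0.23 with 12 negative. Of the copper factors, Coa6 had 0.77 (SE 0.74), from a computed 169 to 287 normalized counts, while Cox17, the copper chaperone, had -0.60 (SE 0.70) and Sco1 -0.33 (SE 0.72) in the authors' deposited table. The haem a enzymes Cox10 and Cox15 had -0.02 (SE 0.84) and -0.13 (SE 0.64). Cox16 at -1.07 (SE 0.81) and Coa7 at -0.78 (SE 0.63) were lowest, and Cox18, a membrane insertase, had 0.05 (SE 0.67) in the authors' deposited table. Cox7a2l, which joins complexes III and IV into supercomplexes, had -0.39 (SE 0.63).

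ATP synthase held the most abundant members. Atp5b, the catalytic beta subunit, had a computed level of 46218 normalized counts in nESC and 32223 in EpiLSC, with a deposited fold change of -0.52 (SE 0.64). The alpha subunit, Atp5a1, had -0.20 (SE 0.61) in the authors' deposited table. The 16 subunits had a median of -0.21 with 13 negative. Atp5o, a stalk subunit, had -0.69 (SE 0.62), and Atp5l at 0.16 (SE 0.63) and Atp5j at 0.02 (SE 0.71) were on the positive side in the authors' deposited table. The c subunit of the rotor is encoded by 3 genes: Atp5g1 had -0.83 (SE 0.81), while Atp5g2 and Atp5g3 both had -0.15 (SE 0.72 and 0.87). Of the summed level per kilobase of these 3 genes, Atp5g1 made up 7.74% in nESC and 4.99% in EpiLSC, and Atp5g3 65.7% and 67.7%. With the principal transcript as length, Atp5g1 made up 3.02% and 1.91%, and Atp5g3 74.2% and 75.1%. The assembly factors Atpaf1 and Atpaf2 had -0.03 (SE 0.68 and 0.64), and Atp5s 0.54 (SE 0.76), in the authors' deposited table.

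Related genes outside the symbol rule were read from lists. None of the 13 subunits encoded in mitochondrial DNA was called, with a median of 0.08 and 9 positive, from mt-Nd5 at -0.27 (SE 0.84) to mt-Nd6 at 0.41 (SE 1.08) in the authors' deposited table. They made up 3.09% of all levels in nESC and 3.06% in EpiLSC. None of 34 assembly factors under other symbols was called (median -0.03), with Lyrm2 at 0.86 (SE 0.67) and Cep89 at -0.75 (SE 0.70) having the smallest p in each direction. None of 13 coenzyme Q synthesis genes was called (median -0.17), with Coq6 at -1.01 (SE 0.66) and Coq2 at 0.33 (SE 0.68) in the authors' deposited table.

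Of 20 regulators of respiratory genes and of mitochondrial DNA expression, 1 was called higher and 1 lower. Esrrb, an orphan nuclear receptor that is also on the naive marker list, fell by 8.54 on the log2 scale (SE 0.69), from a computed 10114 to 27.1 normalized counts. Its relative Esrrg was called higher in the authors' deposited table (6.90, SE 2.10), but from a computed 0.172 normalized counts in nESC to 20.5 in EpiLSC, so the nESC level rests on few reads. Tfam, which packages mitochondrial DNA, had 0.69 (SE 0.77) and the coactivator Pprc1 -0.97 (SE 0.80) in the authors' deposited table; both were picked for mention after their values were seen. Of 10 listed cristae and MICOS genes 1 was called, 1700029J07Rik. It rose by 4.77 (SE 1.5) from a computed 1.28 to 34.9 normalized counts, so its nESC level also rests on few reads. Whether this gene belongs to that complex is uncertain, and none of the other listed genes was called.

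Members differed in how precisely they were measured, and the SE went with both base composition and level. Among 108 members with a mean of 100 or more, 9 had an SE above 1: Ndufa13, Ndufa11, Uqcr11, Ndufb7, Atp5d, Ndufs7, Ndufs8, Ndufa8 and Uqcr10. The GC content of their principal transcripts ran from 54.4% to 60.4%, with a median of 58.9%, against a median of 49.5% for members with an SE under 0.8. No member below 50% GC had such an SE (0 of 50), against 2 of 34 from 50% to 55% and 7 of 24 at 55% or more. Across the 108 genes, SE and GC content had a Pearson r of 0.49 and a Spearman rho of 0.33, a description of genes that share the same 4 libraries. SE and the log2 mean had a Spearman rho of -0.33 across the same genes, and the median mean was 465 for an SE above 1 and 1375 for an SE under 0.8. Over all tested genes at such means, the rho of SE was -0.43 with the log2 mean and 0.30 with GC content. The parts of GC content and level in the SE were not separated. Over 10690 tested genes of that mean the Pearson r was 0.37, and 780 had an SE above 1, so the pattern is not limited to the members. Fold changes of the 9 genes lay between -0.51 and 0.16, and their intervals reach as far as -2.98 and 2.72.

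**Figure D4:**
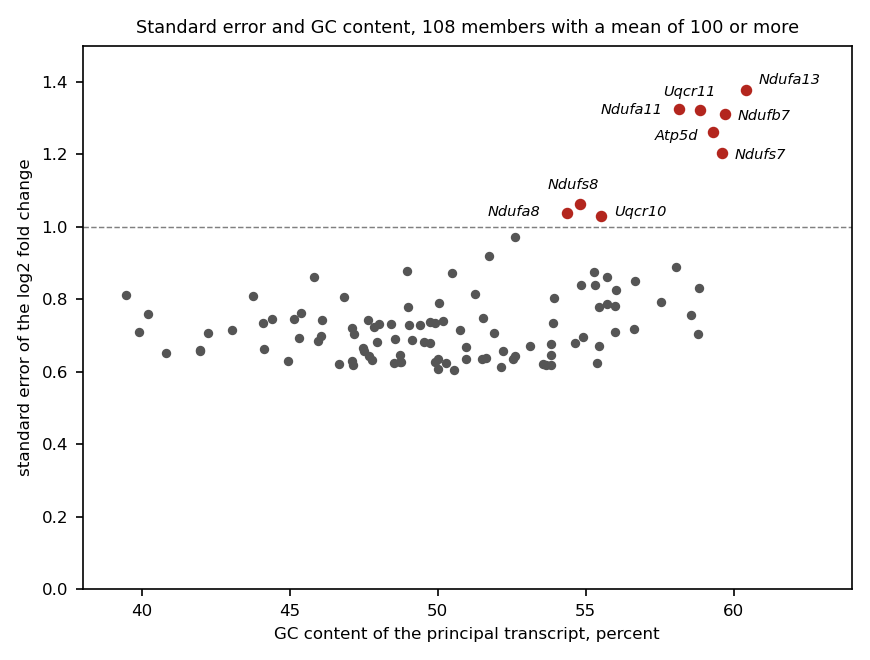
SE of the deposited log2 fold change (vertical) against GC content of the principal transcript in percent (horizontal) for 108 members with a mean of 100 or more; each point is a gene and the dashed line is an SE of 1. The 9 named genes above the line lie between 54.4% and 60.4% GC.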

How the data were processed

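RNA sequencing of 4 samples was used, 2 per state. Per the submitters' processing notes, the authors used TopHat2, HTSeq and DESeq2 1.8.2 with mm9 as genome build. For the gene annotation and the strand setting, the value is not given in the sources used here. Values were taken from the authors' comparison table. Its mean of normalized counts is a signal, the authors' counts after scaling by size factors, per the file headers. The deposited log2 fold changes and standard errors, the deposited Wald score and the deposited p-value come from the authors' DESeq2 model, per the file headers and the processing notes. No new test of single genes was made, since the table holds no values per sample. It was checked that the score equals the fold change over its standard error (largest gap 5.86e-14) and that the adjusted p is the Benjamini-Hochberg value over 16361 genes (largest gap 2.33e-15).

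Computed here with Python 3.11.15 and SciPy 1.17.1 were 95% normal intervals and levels per state: nESC is 2m/(1 + 2 to the power L) for mean m and log2 fold change L, and EpiLSC the rest of 2m. A level under 3 was taken to rest on few reads. Symbols, exon lengths and GC content came from GENCODE M21, on GRCm38, a different build from the authors'; 20167 of 20296 IDs matched. Promoters came from RefSeq's GRCm38.p6 table, 97 members being matched by Ensembl ID, else by symbol or unique synonym. The calculations were tested on simulated data.

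Members and lists were chosen with earlier results of these data known. Genes were named by rule: for each complex, the 2 subunits and 2 assembly factors of smallest p in each direction, the highest and lowest per kilobase, isoform families, and per list the called genes (up to 6) and the smallest p in each direction; others were added after their values were seen. The roles, the motifs, the 4 promoters shown, the SE bound of 1, the GC ranges and the principal transcript as the source of GC content were also chosen after values were seen; GC content was first taken from the longest transcript, and both versions are given. Listed symbols with no row were not analysed here. The values of 1 member are not reported here; it is counted in the totals and medians.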

Additional observations from a re-analysis of the deposited data

How the results depend on the processing

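The counts of called members were 0 in both directions under every alternative, but most of these could not have given a call. Adding a fold of 2 or more, or testing against a 2-fold change, can only remove calls. With no filter on the mean, or only genes at means of at least 100, no call was possible either. The smallest unadjusted p of a tested member by the DESeq2 Wald test was 0.056, for Cox7a1. The looser bound, an adjusted p under 0.1, also gave 0. Of 49 named members none was called under these alternatives, and the smallest adjusted p from them was 0.307, from the deposited DESeq2 p-values. Among members with a mean of 100 or more, the median fold change moved by over 0.1 for complex I assembly factors (0.46), complex IV assembly factors (-0.13) and complex IV subunits (-0.48); each kept its sign and fewer genes were counted. The other medians moved by at most 0.1, also relative to the median of all genes. The mean levels per kilobase of the highest members depended on the length used. Uqcrb went from 5259 with merged exons to 8154 with the longest and 8611 with the principal transcript, a length added after values were seen. Atp5b went from 9257 to 20470 with either transcript. Ndufv2, Cox6b1 and Cycs moved less, and Sdhd did not move. With either transcript as length, another member was highest in complexes I, II and IV. With GC content of the longest transcript, the definition used first, in place of that of the principal transcript, adopted after the first result was seen, the Pearson r of SE and GC among members was 0.45 in place of 0.49 and the Spearman rho 0.29 in place of 0.33; the median GC content of the 9 genes with an SE above 1 was 58.0% in place of 58.9%. No paired analysis was possible because the table has no column per sample, which also left out the planned removal of each sample. Depth per sample is unknown, and at these SEs no change under 2-fold can reach an unadjusted p of 0.05.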
